A study of Mus musculus with 6 samples.

Results

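Of the 17901 H3K9ac peaks of lung endothelial cells in the table used here, 1806 (10.1%) lay between genes and within 50 kb of a gene start, and these are described here. A peak was taken when the authors' deposited annotation placed it between genes, its centre lay more than 1000 and at most 50000 bp from the nearest transcription start, and it was annotated neither to a repeat element nor to a CpG island. The rule used position alone and no level. The mark was profiled by CUT&RUN, which cuts and releases the DNA under an antibody-bound protein, in 3 CSE-KO (Cre-pos) and 3 WT (Cre-neg) libraries. CSE is cystathionine gamma-lyase, which makes cysteine from cystathionine, and the comparison asks whether its loss alters acetylation of histones in endothelium. The labels state neither the promoter that drives Cre nor the age and strain of the mice, nor whether each library came from its own animal. P-values therefore cover only the spread among the libraries, part of which may be technical.

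Acetylation of lysine 9 of histone H3 is laid down by histone acetyltransferases from acetyl-CoA and is found at active promoters and, at a lower level, at active enhancers. Enhancers are stretches of DNA, often far from a start, that bind transcription factors and raise the transcription of genes on the same chromosome. In endothelium such elements bind ETS, SOX, GATA and AP-1 factors. An intergenic H3K9ac peak can mark an enhancer or the start of a transcript that the annotation lacks. The nearest gene names a peak's position and need not be the gene on which it acts.

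The total count over all peaks was 1173016, 679938 and 685131 in CSE-KO replicates 1 to 3 and 676056, 313610 and 610922 in WT replicates 1 to 3. All 3 CSE-KO totals lay above all 3 WT totals, and the part of depth in the results was not tested. Levels are given as CPM, counts per unit of scaled library size. Few reads stood behind most of them: the median intergenic peak held 34, 20 and 20 reads in the CSE-KO libraries and 21, 9 and 17 reads in the WT libraries. Libraries of a group differed by more than counting error, with a chi-square per degree of freedom between 1.85 and 2.15. All 12 endothelial markers checked had a peak, and 7 of them a promoter peak. Peaks were next to 1 of 15 leukocyte genes (Csf1r), 5 of 14 epithelial genes (Cdh1, Epcam, Krt8, Krt18 and Scgb1a1) and 1 of 16 stromal genes (Col1a1). Peaks next to the endothelial markers summed to 2443 to 2725 CPM in CSE-KO and 2630 to 2905 CPM in WT libraries. Those next to the epithelial genes summed to 290 to 332 CPM in CSE-KO and 320 to 350 CPM in WT libraries, and neither Ptprc, Sftpc nor Pdgfra had a peak. The part of other cells in the results was not tested.

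Some of these peaks lie on gene starts that RefSeq places there, and the sequences before such starts are shown because they mark transcripts at positions called intergenic. Coordinates follow GRCm38, and the RefSeq tables used are those of GRCm38.p6. A RefSeq start window, 250 bases before to 50 after a start, overlapped 71 of the 1806 peaks (3.93%), against 5611 of the 8021 promoter peaks (70.0%), those annotated to a promoter or within 1 kb of a start. The 80 windows belonged to 74 genes, 64 of them lncRNA genes and 10 protein-coding, and 28 windows lay wholly inside a peak. The 250 bases before the start are printed 5′ to 3′ on the gene's strand for the 5 windows inside the peaks of highest level among these. They do not stand for the class: the 71 peaks had a median of 39.6 CPM, against 29.1 CPM for the other 1735. Capitals mark matches on either strand to the AP-1 letters TGANTCA, the ETS letters CCGGAA, the GC box GGGCGG, the TATA box with letters TATAAA, the box named by its letters CCAAT, or the E-box with letters CACGTG; matches may overlap.
Gm39783, chr2:30771997-30772246, plus strand: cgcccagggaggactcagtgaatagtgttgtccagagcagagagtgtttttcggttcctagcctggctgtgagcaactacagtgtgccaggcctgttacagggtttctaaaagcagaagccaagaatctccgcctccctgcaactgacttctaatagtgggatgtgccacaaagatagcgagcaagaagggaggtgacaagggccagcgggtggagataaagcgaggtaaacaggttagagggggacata
Gatad2b, first start, chr3:90292931-90293180, plus strand: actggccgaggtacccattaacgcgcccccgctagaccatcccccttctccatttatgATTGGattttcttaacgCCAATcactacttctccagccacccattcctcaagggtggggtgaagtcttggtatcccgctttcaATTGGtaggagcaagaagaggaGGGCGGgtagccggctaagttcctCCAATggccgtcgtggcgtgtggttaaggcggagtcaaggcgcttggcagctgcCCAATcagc
Gatad2b, second start, chr3:90293836-90294085, plus strand: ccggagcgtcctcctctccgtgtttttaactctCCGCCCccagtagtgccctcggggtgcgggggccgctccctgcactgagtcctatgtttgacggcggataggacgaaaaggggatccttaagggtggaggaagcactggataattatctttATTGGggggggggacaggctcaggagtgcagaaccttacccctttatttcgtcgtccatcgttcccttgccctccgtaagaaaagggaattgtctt
Gm8098, chr11:30267208-30267457, plus strand: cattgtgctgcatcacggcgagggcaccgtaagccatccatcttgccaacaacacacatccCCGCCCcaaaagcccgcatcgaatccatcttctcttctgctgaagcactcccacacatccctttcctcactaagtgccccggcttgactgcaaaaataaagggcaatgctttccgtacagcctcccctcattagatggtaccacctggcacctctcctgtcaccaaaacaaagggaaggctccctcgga
Gm39054, chr7:98815881-98816130, plus strand: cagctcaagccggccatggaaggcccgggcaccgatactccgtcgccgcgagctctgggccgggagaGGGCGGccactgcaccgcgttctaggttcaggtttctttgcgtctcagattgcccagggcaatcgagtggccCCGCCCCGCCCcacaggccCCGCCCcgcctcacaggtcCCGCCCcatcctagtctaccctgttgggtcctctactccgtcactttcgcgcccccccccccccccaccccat

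The Gatad2b stretches belong to a subunit of the NuRD chromatin remodelling complex. Their peak, chr3:90292419-90294272, was assigned to the microRNA gene Mir7012 at 23196 bp, while RefSeq places these 2 Gatad2b starts within it. It had 107, 105 and 130 CPM in CSE-KO, against 142, 136 and 138 CPM in WT libraries, with no overlap of the groups (log2 fold change -0.29, SE 0.18, edgeR adjusted p = 0.78). Each of the Gatad2b stretches has a GC box and at least 1 CCAAT box, Gm8098 has a GC box, and Gm39783 has none of the 6 motifs. Gm39054 is a GC-rich stretch, 69.6% G or C with 21 CpG dinucleotides, and holds several GC boxes, some of which share bases. A GC box was found in 16 of the 80 windows (20.0%) and in 32.7% of all 32851 RefSeq windows of the same length, and a CCAAT box in 22 (27.5%) and 33.8%. AP-1 letters stood in 7 of the 80 (8.75%) and in 6.75% of all windows, ETS letters in 9 (11.3%) and 12.0%, TATA letters in 7 (8.75%) and 12.4%, and the E-box in 3 (3.75%) and 6.02%. These are matches of letters, with no test, and neighbouring windows of a gene share bases. The rule left out peaks annotated to CpG islands, while no such limit was set on all RefSeq windows, so the shares compare unlike sets.

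The class lay mostly upstream of the nearest start. Of the 1806 peaks, 1282 (71.0%) were upstream and 524 downstream, against 53.1% upstream among the 1029 comparable intergenic peaks beyond 50 kb. Positions just downstream of a start are mostly inside the gene, which the rule leaves out: between 1 and 5 kb there were 188 upstream and 18 downstream peaks. Between 25 and 50 kb the numbers were 367 and 251. The median distance was 17.2 kb.

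**Figure D1:**
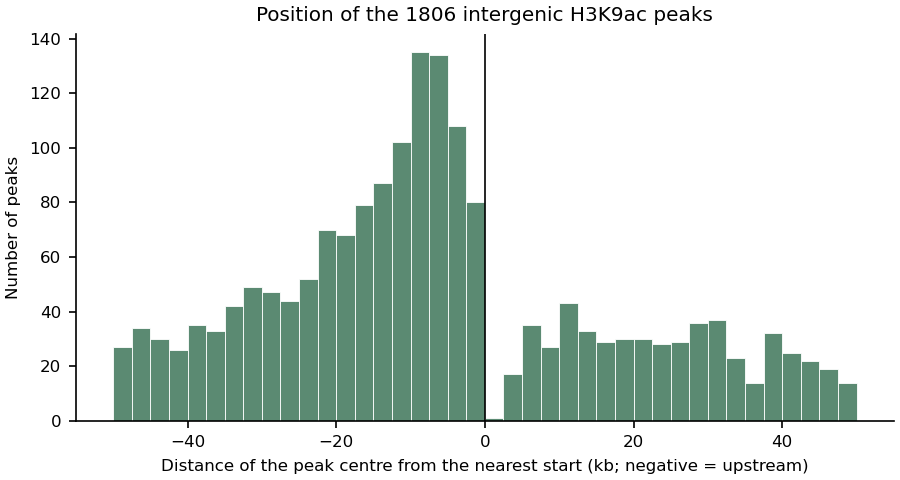
Number of intergenic H3K9ac peaks (vertical axis) by signed distance of the peak centre from the nearest start in bins of 2.5 kb (horizontal axis, kb, negative upstream). The fullest bins hold 135 and 134 peaks between 5 and 10 kb upstream, and the first 2.5 kb downstream hold 1.

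The peaks were short and of low level. Their median width was 602 bp, against 616 bp for intergenic peaks beyond 50 kb, 735 bp for distal peaks in first introns and 1073 bp for promoter peaks. The median level was 29.5 CPM (quartiles 18.2 and 46.8), against 26.8 CPM beyond 50 kb, 37.0 CPM in first introns and 62.6 CPM at promoters. Set per length, the medians were closer: 47.5 CPM per kb in this class, 44.3 beyond 50 kb, 51.8 in first introns and 58.8 at promoters. Within the class the median level was 32.5 CPM at 1 to 5 kb from the start, 29.6 at 5 to 10 kb, 30.0 at 10 to 25 kb and 27.5 at 25 to 50 kb. Per length, the same bins had medians of 52.3, 48.2, 47.1 and 45.8 CPM per kb. These differences between classes and bins are descriptions with no test, since peaks of the same libraries are not replicates.

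The peak nearest the inner limit, 1002 bp upstream of Gm26839, had 64.9 CPM in CSE-KO and 44.5 CPM in WT. The deposited annotation called no comparable peak closer to a start intergenic. At the outer limit, a peak 49989 bp upstream of Glrx had 27.3 CPM in CSE-KO and 35.6 CPM in WT, and the next one out, 50219 bp upstream of Tob1, had 54.7 CPM in CSE-KO and 60.1 CPM in WT.

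The peaks were spread over 1481 named nearest genes, of which 1223 had 1 peak, 207 had 2, 41 had 3, 8 had 4 and 2 had 5. The nearest gene was protein-coding for 1426 peaks, a lncRNA gene for 275 and a microRNA gene for 70. It had a promoter peak of its own in the table for 694 peaks (38.4%), against 38.9% beyond 50 kb and 47.8% for first introns. Peaks with no named gene were counted here as having one, 4 of the 694 in this class and 2 beyond 50 kb, so these counts are slightly too high. By the kind of gene, the share with a promoter peak was 45.3% where the nearest gene was protein-coding and 12.4% where it was a lncRNA gene. The median gap to the nearest other peak of any class was 15.2 kb, and 247 peaks (13.7%) had one within 5 kb.

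The RefSeq gene table held transcripts at positions that the deposited annotation called intergenic. Of the 1806 peaks, 515 (28.5%) overlapped a RefSeq gene: 28 a tRNA gene, 179 a protein-coding gene but no tRNA gene, 290 a lncRNA gene but neither of these, and 18 another kind. In 124 cases the overlapped gene was the one named as nearest. The remaining 1291 peaks overlapped none.

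Some peaks covered transfer RNA genes, which RNA polymerase III transcribes. Of all 17901 peaks 54 overlapped a tRNA gene, and 28 of those 54 fell in this class, against 1 among intergenic peaks beyond 50 kb, 2 in first introns and 14 at promoters. The 28 peaks had a median level of 55.5 CPM and 56.2 CPM per kb, against 28.6 CPM and 47.3 CPM per kb for the 1291 peaks over no gene. The strongest, upstream of the lipoxygenase gene Aloxe3 (chr11:69123863-69126000), overlaps n-TKctt27, n-TLtag3 and n-TQctg6 and, in RefSeq, also Aloxe3 and Hes7. It had 174, 155 and 177 CPM in CSE-KO replicates 1 to 3, against 173, 184 and 189 CPM in WT replicates 1 to 3, and the groups overlapped. Chosen after their values were seen, a peak over n-TKctt28, n-TMcat14 and n-TMcat15 near Trim27 (chr13:21167122-21169974) averaged 116 ± 7.20 CPM in CSE-KO and 101 ± 7.61 CPM in WT (SD, n = 3 each), and one over n-TPagg7 and n-TPtgg8 near Wnt11, which also holds the Gm39054 start printed above, averaged 110 ± 2.99 and 103 ± 19.9 CPM in CSE-KO and WT. Copies of a tRNA gene can be near-identical, and how multiply mapping reads were handled is unknown here, so the level at a single copy is uncertain.

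None of the 28 tRNA peaks passed the adjusted threshold with edgeR, and 5 had groups that did not overlap, 4 of them lower in CSE-KO. Over all tested peaks of the table, 0.0868% were called and 13.0% had groups that did not overlap. The fitted log2 fold change of CSE-KO over WT lay below 0 for 17 of the 28, with a median of -0.09, against 8076 of 16134 below 0 and a median of -0.00034 over all tested peaks. An unadjusted p under 0.05 was found for 4, all lower in CSE-KO, where the share over all tested peaks was 7.08%. They were both peaks near C230035I16Rik and those near Prss16 (chr13:22021003-22021463) and Mir5103. These were named after their values were seen. The peak at n-TRacg1 near Prss16, which had the largest fold change of the 4, had 14.4, 16.1 and 13.0 CPM in CSE-KO, against 22.2, 25.9 and 62.5 CPM in WT libraries, with WT replicate 3 far above the other two (log2 fold change -1.37, SE 0.43, edgeR adjusted p = 0.43). The tRNA peaks made up 2.44% ± 0.109 of the reads of the class in CSE-KO and 2.61% ± 0.119 in WT (SD, n = 3 each), and the ranges, 2.36% to 2.56% in CSE-KO and 2.47% to 2.68% in WT, overlapped.

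None of the 10 peaks of highest level was called with edgeR, where the share over all tested peaks was 0.0868%. The first 2 lay upstream of microRNA genes. Mir23a encodes microRNAs of the miR-23, miR-27 and miR-24 cluster, which is abundant in endothelium, and Mir99b lies in a cluster with let-7e and miR-125a. The mature forms, from RefSeq on GRCm38.p6, are printed with the seed, bases 2 to 8, in capitals, since the seed decides which transcripts a microRNA pairs with. No seed is shared among the 4, and all lie on the plus strand.
mmu-miR-23a-5p, chr8:84208527-84208548: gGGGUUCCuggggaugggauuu
mmu-miR-23a-3p, chr8:84208563-84208583: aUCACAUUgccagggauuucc
mmu-miR-99b-5p, chr17:17830194-17830215: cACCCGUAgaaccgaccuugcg
mmu-miR-99b-3p, chr17:17830232-17830253: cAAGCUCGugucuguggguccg

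The peak upstream of Mir23a (chr8:84201337-84204102, 5799 bp from the start) had 354, 355 and 352 CPM in CSE-KO replicates 1 to 3, against 380, 372 and 406 CPM in WT replicates 1 to 3. All 3 CSE-KO values lay below all 3 WT values, and the difference did not pass the test (log2 fold change -0.13, SE 0.12, edgeR adjusted p = 0.87). The peak upstream of Mir99b (chr17:17827097-17829707) had 195, 253 and 297 CPM in CSE-KO, against 248, 288 and 281 CPM in WT, and the groups overlapped. It also overlaps the sperm membrane gene Spaca6 in RefSeq.

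The next, upstream of Cbx7, a Polycomb subunit, had 190, 205 and 219 CPM in CSE-KO and 196, 194 and 227 CPM in WT libraries. The other 7 were nearest to Gm3363, 4921511C10Rik, Asah2 (a ceramidase), Aloxe3, Spag9 (a scaffold of JNK signalling), Vcpkmt (a lysine methyltransferase) and Btd (biotinidase), with group means of 156 to 192 CPM in CSE-KO and 173 to 193 CPM in WT. The fitted log2 fold change of the 10 ran from -0.23 at Btd to 0.03 at Vcpkmt, and the edgeR adjusted p was 0.81 or more. The groups overlapped at all of them but Mir23a, where 13.0% of all tested peaks had groups that did not overlap. The 4921511C10Rik peak overlaps Rapgef2 in RefSeq, a gene of Rap signalling, and the Cbx7 peak overlaps Cbx7 itself.

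**Figure D2:**
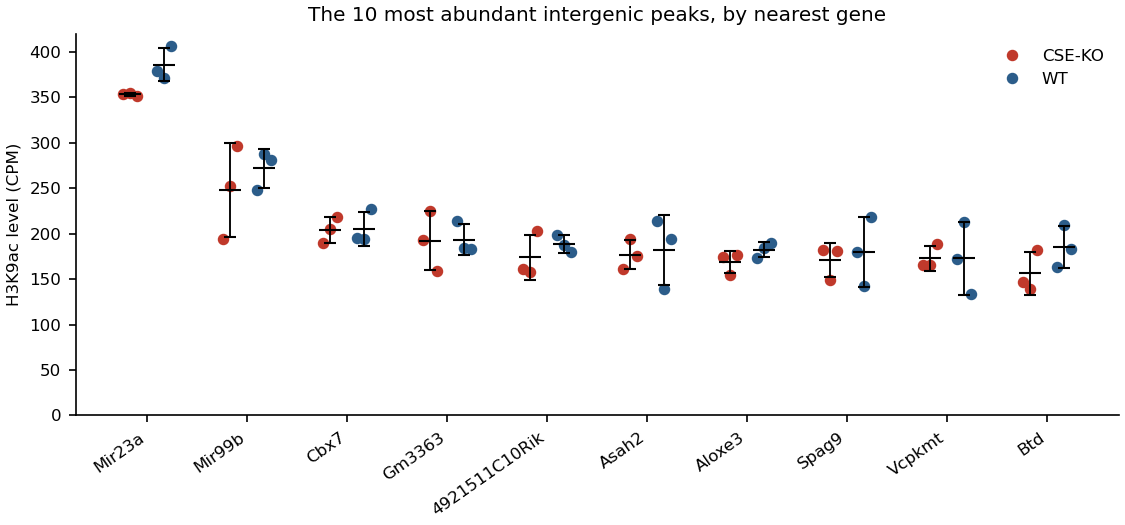
H3K9ac level in CPM (vertical axis, from 0) at the 10 intergenic peaks of highest mean level, named by nearest gene, with 1 point per library, CSE-KO left of WT, and bars for the mean ± SD of 3 libraries. The groups overlap at each peak except Mir23a, where the CSE-KO points sit at 352 to 355 CPM.

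Ranked by level per length, a choice made after values were seen, other peaks led. The first was 812 bp wide and 2371 bp upstream of Sqstm1, the autophagy receptor p62 (chr11:50212786-50213597), at 162 CPM per kb. It had 109, 134 and 113 CPM in CSE-KO and 169, 120 and 145 CPM in WT libraries (log2 fold change -0.32, SE 0.18, edgeR adjusted p = 0.75). A narrow peak 3055 bp upstream of Egfl7, a factor secreted by endothelium, had 156 CPM per kb, and peaks near the clock gene Per1 (151), the paraspeckle lncRNA Neat1 (146) and the venous transcription factor Nr2f2 (139) were among the first 10.

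The share of the mark held by the class differed between the groups by less than the SD of the WT libraries. It was 6.79%, 6.75% and 6.77% of all counts in CSE-KO replicates 1 to 3, against 6.93%, 6.60% and 6.69% in WT replicates 1 to 3. The mean was 6.77% ± 0.021 in CSE-KO and 6.74% ± 0.169 in WT (SD, n = 3 each), and the CSE-KO values lay inside the WT range. Upstream peaks took 71.99% ± 0.454 of the reads of the class in CSE-KO and 72.15% ± 0.285 in WT. Each library is scaled to its own total, so a change of H3K9ac at all peaks alike could not be seen.

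Single peaks were tested with edgeR's quasi-likelihood test over all 16134 peaks that passed the filter on low counts, and 1563 of the 1806 were among them. The test called 3 of the 1563, with 2 higher and 1 lower in CSE-KO, at a Benjamini-Hochberg adjusted p under 0.05 over all tested peaks. Over all tested peaks 0.0868% were called, 0.0248% as higher and 0.0620% as lower. The median log2 fold change of the 1563 was 0.00035, against -0.00034 over all tested peaks, and 779 (49.8%) lay below 0. At an unadjusted p under 0.05 there were 127 (8.13%), 52 higher and 75 lower, where the share over all tested peaks was 7.08%. The groups did not overlap at 209 (13.4%), against 13.0% of all tested peaks. The SE of the fold change, on the log2 scale, had a median of 0.36, against 0.26 at promoter peaks. The median coefficient of variation between libraries of a group was 22.3% in CSE-KO and 27.1% in WT.

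A peak near Samd4 rose. Samd4 encodes an RNA-binding protein that represses translation, and the peak lies 9697 bp upstream of its start (chr14:46872784-46873752). It had 82.1, 29.2 and 63.7 CPM in CSE-KO replicates 1 to 3, from 97, 20 and 44 reads, against 19.3, 12.9 and 18.1 CPM in WT replicates 1 to 3, from 13, 4 and 11 reads. All CSE-KO values were higher than all WT values, but CSE-KO replicate 2 lay much nearer to WT than the other two did. The log2 fold change was 1.77 (SE 0.37, edgeR adjusted p = 0.031).

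A peak near Tmem158, a membrane protein gene induced by Ras signalling, rose too (chr9:123285088-123285809, 24659 bp upstream). It had 44.0, 59.9 and 47.8 CPM in CSE-KO, from 52, 41 and 33 reads, against 8.90, 19.4 and 18.1 CPM in WT, from 6, 6 and 11 reads. The groups lay well apart. The log2 fold change was 1.76 (SE 0.38, edgeR adjusted p = 0.042).

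A peak 6431 bp upstream of Stard10, a lipid transfer protein gene, fell (chr7:101310494-101310817). It had 13.5, 5.85 and 5.79 CPM in CSE-KO, from 16, 4 and 4 reads, against 41.5, 42.0 and 34.6 CPM in WT, from 28, 13 and 21 reads. All CSE-KO values lay below all WT values, with CSE-KO replicate 1 the highest of its group. The log2 fold change was -2.09 (SE 0.45, edgeR adjusted p = 0.042). At 324 bp it was the narrowest of the 3. Neither Stard10 nor Tmem158 had a promoter peak in the table, while Samd4 had one.

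None of the 3 calls held under all settings. When the proviral MuLV-int repeats were dropped before fitting, an alternative chosen after seeing the data, each had an adjusted p of 0.070, and neither the Wald test of DESeq2 (0.13 to 0.24) nor voom (0.16 to 0.32) called any. The Samd4 call was lost without CSE-KO replicate 1 (0.62), CSE-KO 3 (0.20), WT 1 (0.11), WT 2 (0.10) or WT 3 (0.26). The Tmem158 call was lost without any library (0.14 to 0.30) but WT 2 (0.039). The Stard10 call was lost without any library, from 0.050 without CSE-KO 1 to 0.36 without CSE-KO 3. The direction was kept in each of these fits.

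**Figure D3:**
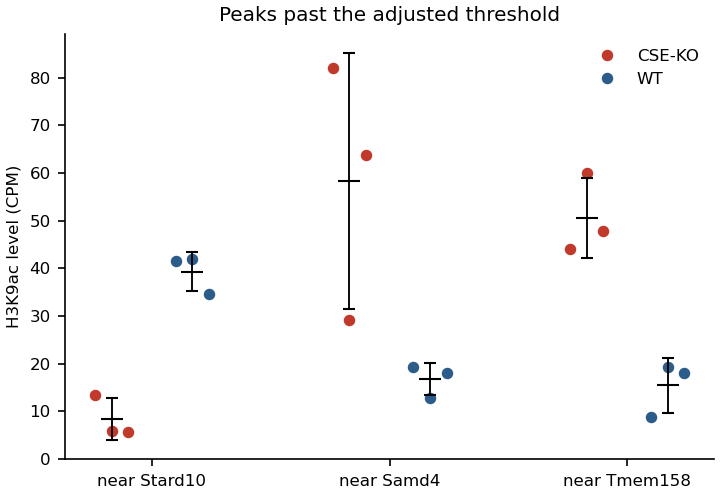
H3K9ac level in CPM (vertical axis, from 0) at the peaks near Stard10, Samd4 and Tmem158, 1 point per library with CSE-KO left of WT, and bars for the mean ± SD of 3 libraries. The CSE-KO points of Samd4 spread from 29.2 to 82.1 CPM, and at Tmem158 they sit at 44.0 CPM or more, above all WT points.

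Next after the called peaks by unadjusted p (edgeR), and not past the threshold, were 2 peaks lower in CSE-KO, named after their values were seen. One near Dynlrb2, a dynein light chain gene, had 4.23, 4.39 and 15.9 CPM in CSE-KO, against 37.1, 42.0 and 23.0 CPM in WT (log2 fold change -2.09, SE 0.51, edgeR adjusted p = 0.11). One near Tex10 had 15.2, 8.77 and 15.9 CPM in CSE-KO, against 43.0, 35.5 and 44.4 CPM in WT (log2 fold change -1.61, SE 0.40, edgeR adjusted p = 0.13). At both, the groups did not overlap. The Dynlrb2 peak held 5, 3 and 11 reads in CSE-KO and 25, 13 and 14 in WT. The Tex10 peak held 18, 6 and 11 reads in CSE-KO and 29, 11 and 27 in WT.

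Among peaks of at least the median level whose groups did not overlap, those with the largest fold changes in each direction were looked at. Apart from Samd4 and Tmem158, peaks higher in CSE-KO were near Zbtb42 (log2 fold change 0.99, SE 0.34) and Nsd1 (0.85, SE 0.23), the gene of a methyltransferase of histone H3 lysine 36. The Nsd1 peak had 105, 92.1 and 107 CPM in CSE-KO, against 62.3, 42.0 and 59.2 CPM in WT (edgeR adjusted p = 0.28). Those lower in CSE-KO were near Ahcyl1 (-1.08, SE 0.35), a regulator of IP3 receptors, Has2 (-1.06, SE 0.34), a hyaluronan synthase, 2610008E11Rik (-1.02, SE 0.33), Ssc4d (-0.96, SE 0.35) and Gm3230 (-0.88, SE 0.31). None of these 7 passed the adjusted threshold (edgeR adjusted p of 0.28 to 0.58).

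**Figure D4:**
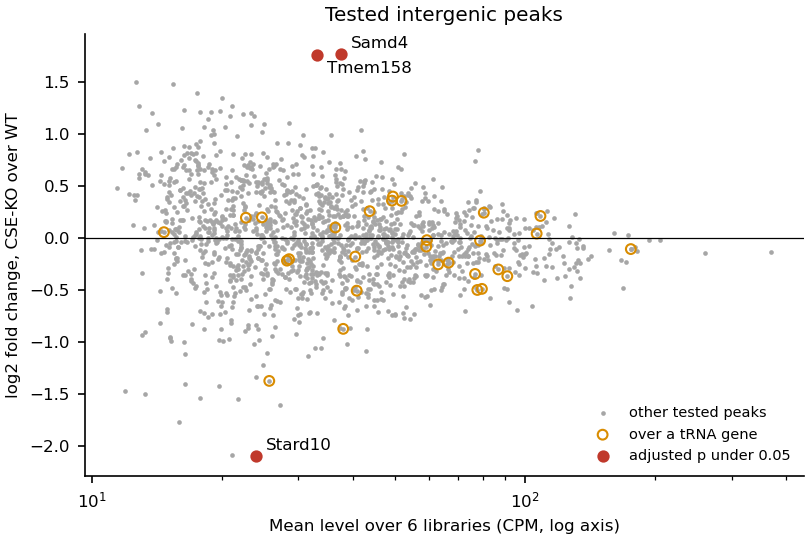
Log2 fold change of CSE-KO over WT (vertical axis) against mean level in CPM (horizontal log axis) for the 1563 tested intergenic peaks. Filled red points are the 3 called peaks and open circles the 28 peaks over tRNA genes, and the spread about 0 narrows as the level rises.

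Peaks near endothelial regulators were found for a part of the genes only. Of 34 endothelial transcription factor genes 8 were the nearest gene of a peak of this class, with 9 peaks, of which 8 were tested. None was called with edgeR, 4 lay above 0 and 4 below, with a median of -0.01, and 2 had an unadjusted p under 0.05, both higher in CSE-KO. Over all tested peaks, 0.0868% were called and 7.08% had such an unadjusted p, and the counts of the lists that follow are to be read against the same shares. The most abundant lay 10619 bp downstream of the start of Nr2f2, with 75.3, 90.6 and 84.0 CPM in CSE-KO, against 91.9, 93.7 and 92.2 CPM in WT (log2 fold change -0.16, SE 0.22, edgeR adjusted p = 0.91). A peak upstream of Klf2, a factor induced by blood flow, averaged 55.2 ± 16.5 CPM in CSE-KO and 69.6 ± 11.3 CPM in WT (SD, n = 3 each), and one at Sox18 averaged 34.9 ± 13.1 and 33.6 ± 17.6 CPM in CSE-KO and WT. The 2 with a low unadjusted p were near Sox7 (log2 fold change 1.26, SE 0.56, edgeR adjusted p = 0.66) and Tal1 (0.89, SE 0.36, edgeR adjusted p = 0.64), factors of endothelial and blood cell fate. The Sox7 peak held 19, 14 and 13 reads in CSE-KO and 6, 2 and 4 in WT. The other Sox7 peak, not tested, averaged 13.2 CPM in CSE-KO and 11.8 CPM in WT, and its groups overlapped. Peaks near Hhex, Hlx and Ets2 had values between -0.62 and 0.47.

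Of 41 endothelial surface and signalling genes, 8 had peaks of this class, 9 in all. None of the 9 was called (edgeR), 4 lay above 0 and 5 below, and the median was -0.15. The strongest was upstream of Procr, the receptor of activated protein C, with 108, 133 and 127 CPM in CSE-KO, against 151, 155 and 122 CPM in WT (log2 fold change -0.22, SE 0.18, edgeR adjusted p = 0.86). Peaks assigned to Cldn5, a tight junction protein (-0.15, SE 0.21), and to Kdr, the main VEGF receptor (-0.25, SE 0.29), had overlapping groups. The sole unadjusted p under 0.05 was at a further Egfl7 peak, 31163 bp upstream, which averaged 30.5 CPM in CSE-KO and 14.1 CPM in WT (log2 fold change 1.19, SE 0.45; adjusted p = 0.60 with edgeR). It was named after its value was seen.

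The signalling lists gave few peaks. Notch, ephrin and guidance genes had 5 (4 tested, 1 above 0, median -0.17), with Sema3f at 50.7 ± 9.76 CPM in CSE-KO and 72.5 ± 14.0 CPM in WT (SD, n = 3 each; log2 fold change -0.49, SE 0.26, edgeR adjusted p = 0.74), the ligand gene Dll4 at 0.37 (SE 0.45) and Notch4 at -0.01 (SE 0.48). Genes of TGF-beta and BMP signalling had 7 (6 tested, 2 above 0, median -0.03), 3 of them at Id3, an inhibitor of bHLH factors. The strongest of the list lay upstream of Ski, a repressor of SMAD factors, at 125 ± 20.7 CPM in CSE-KO and 127 ± 15.3 CPM in WT (SD, n = 3 each). No peak of either list was called with edgeR, and none had an unadjusted p under 0.05.

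Immediate early genes, which respond to stimuli within minutes, had the most peaks of the lists: 17 near 9 of 21 genes. Of 16 tested, 11 lay above 0 and 5 below, with a median of 0.11, and none was called or had an unadjusted p under 0.05 (edgeR). Their peaks summed to 873 to 887 CPM in CSE-KO and 808 to 841 CPM in WT libraries, a description of a list chosen with results of these data known. In every other list with a peak of this class, the summed ranges of the groups overlapped. For NF-kB and inflammation they were 354 to 356 CPM in CSE-KO and 320 to 433 CPM in WT libraries. Dusp1, a phosphatase that ends MAP kinase signals, had 5 and Fos had 4. The strongest peak of the list lay 42969 bp downstream of the start of Dusp1, at a mean of 133 CPM over the libraries. Next, at a mean of 128 CPM, was a peak 2577 bp upstream of Zfp36, whose product speeds the decay of cytokine mRNAs. The Zfp36 peak had 145, 146 and 98.5 CPM in CSE-KO, against 151, 103 and 127 CPM in WT. The Fos peaks, chosen after their values were seen, lay 29284, 10966 and 1498 bp upstream and 12030 bp downstream. The 3 that were tested had log2 fold changes of -0.04, 0.60 and 0.39 in that order (edgeR adjusted p of 0.81 to 0.99).

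Genes of NF-kB and inflammation had 11 peaks (10 tested, 4 above 0, median -0.04). The strongest, 26309 bp downstream of the start of Nfkbia, the NF-kB inhibitor, averaged 95.3 ± 11.6 CPM in CSE-KO and 93.6 ± 26.2 CPM in WT (SD, n = 3 each). Those upstream of the chemokine gene Ccl2 had log2 fold changes of 0.03 (SE 0.30) and -0.17 (SE 0.27). None was called (edgeR), and none had an unadjusted p under 0.05.

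Genes of cysteine use, sulfide, the ATF4 response and NRF2 had 9 tested peaks near 6 of 32 genes, and none was called (edgeR). Of these, 4 lay above 0 and 5 below, with a median of -0.04. Slc38a2, an amino acid transporter induced by amino acid shortage, had 3, of which the strongest had 104, 115 and 112 CPM in CSE-KO, against 104, 123 and 87.2 CPM in WT (log2 fold change 0.10, SE 0.20, edgeR adjusted p = 0.95). A peak upstream of Gclc, which encodes the catalytic part of glutamate-cysteine ligase, had 118, 89.2 and 116 CPM in CSE-KO, against 86.0, 80.8 and 135 CPM in WT (0.08, SE 0.21). The lowest unadjusted p of the list, 0.0025 (edgeR), was at a peak 8094 bp from the start of Ddit4. Ddit4 encodes a stress-induced inhibitor of mTOR complex signalling. The peak averaged 7.33 CPM in CSE-KO, from 7, 10 and 1 reads, and 24.4 CPM in WT, from 22, 7 and 11 reads. Its log2 fold change was -1.77 (SE 0.56, edgeR adjusted p = 0.44). The other Ddit4 peak, 8700 bp from the start, had overlapping groups (log2 fold change -0.40, SE 0.51, edgeR adjusted p = 0.91). The Ddit4 peaks were named after their values were seen. Chac1, which degrades glutathione, had 0.49 (SE 0.36) and Sesn2, a sensor of amino acid shortage, -0.04 (SE 0.30).

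Among genes of other lung cells, no leukocyte gene was nearest to a peak of this class. Krt8 with 2 peaks, Krt18 with 1 and Scgb1a1 with 1 stood for epithelium, and their sum was 81.1 to 118 CPM in CSE-KO and 84.0 to 122 CPM in WT libraries. Col1a1 with 1 peak stood for stroma, at 38.7 ± 15.0 CPM in CSE-KO and 39.3 ± 6.83 CPM in WT (SD, n = 3 each). None of the 5 was called (edgeR), and none had an unadjusted p under 0.05.

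**Figure D5:**
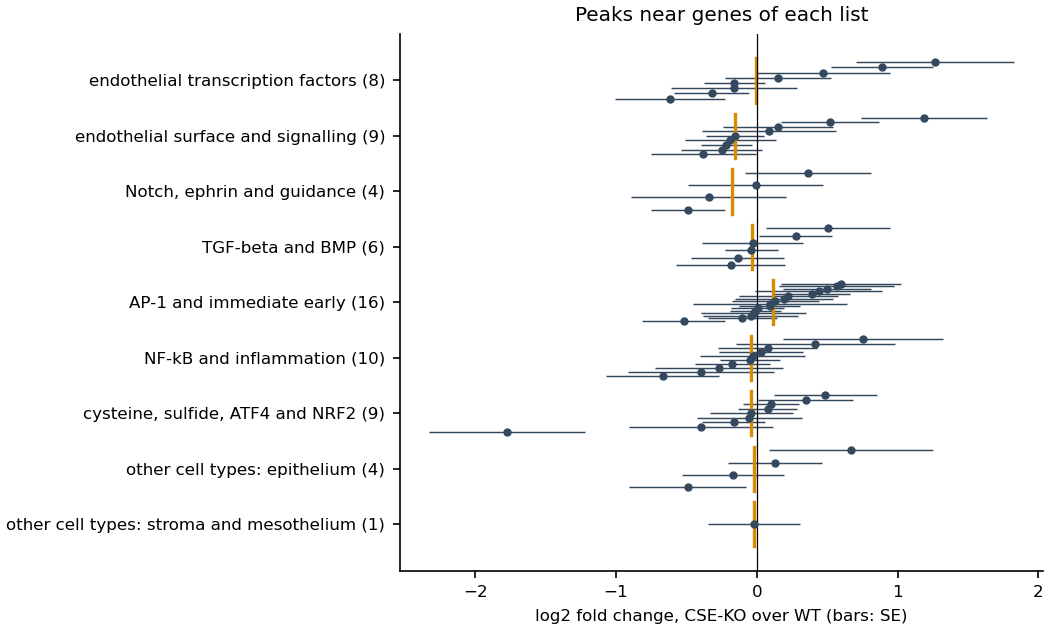
Log2 fold change of CSE-KO over WT (horizontal axis) with its SE (bars) for each tested intergenic peak near a gene of the listed groups, with the number of tested peaks in brackets. Orange lines mark the median of a group, which lay between -0.17 and 0.11.

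Dusp1, Mir3089, Pisd, Synb and Etv4 were the genes with most peaks, ties at 4 peaks being ordered by summed level. The Dusp1 peaks ran from 5967 bp upstream to 42969 bp downstream of its start, and the outermost downstream one was the strongest, with 131, 117 and 149 CPM in CSE-KO, against 119, 139 and 145 CPM in WT. Over all 5 the log2 fold changes lay between -0.10 and 0.57, none called (edgeR). The Mir3089 peaks lay between 12747 bp upstream and 37542 bp downstream, and their values ran from -0.99 (SE 0.47, edgeR adjusted p = 0.69) at the farthest downstream to 0.20 at the farthest upstream.

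Etv4, an ETS factor gene, had 4 peaks upstream, the strongest at 45293 bp with 140, 145 and 112 CPM in CSE-KO, against 156, 165 and 133 CPM in WT. A weaker one at 30132 bp averaged 24.9 ± 8.28 CPM in CSE-KO and 10.1 ± 3.70 CPM in WT (SD, n = 3 each; log2 fold change 1.40, SE 0.50, edgeR adjusted p = 0.57). The 4 Synb peaks overlap Gm16867, a gene that RefSeq lists as protein-coding. One of them had 99.9, 108 and 82.6 CPM in CSE-KO, against 54.9, 45.2 and 69.1 CPM in WT, and the groups did not overlap (log2 fold change 0.74, SE 0.24, edgeR adjusted p = 0.45).

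Of the Pisd peaks, 3 overlap the RefSeq gene Gm2420, and the strongest 2 varied widely within a group. The peak chr5:32728878-32730448 had 66.0, 126 and 152 CPM in CSE-KO, against 108, 217 and 133 CPM in WT (log2 fold change -0.39, SE 0.23, edgeR adjusted p = 0.76). The peak chr5:32725576-32726887 had 67.7, 145 and 94.1 CPM in CSE-KO, against 129, 184 and 143 CPM in WT (log2 fold change -0.58, SE 0.21, edgeR adjusted p = 0.58). In both, CSE-KO replicate 1 was the lowest library and WT replicate 2 the highest. Pseudogene copies of Pisd exist in the mouse genome, so the level at this locus is uncertain.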

How the data were processed

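Per the submitters' processing notes, the tools were STAR 2.7.11a, Trimmomatic 0.39, DESeq2 1.36.0, featureCounts and Picard 3.1.1, in no stated order. No source used here names the peak caller. The authors deposited 1 table of 17901 peaks, whose identifiers reach 23867, with the raw read count of each peak and library. Its 12 normalized and RPKM columns were not used. The notes name mm39, but the deposited positions follow GRCm38: the start implied by peak centre and distance lay within 100 bp of an end of the named gene in RefSeq GRCm38.p6 for 73.3% of 1773 of these peaks, with a median gap of 0 bp. For 4 peaks no gene was named.

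Counts were tested with edgeR 4.0.16 in R 4.3.3 (TMM factors, peaks kept by filterByExpr at min.count 10, glmQLFit and glmQLFTest with group as the sole term, two-sided, Benjamini-Hochberg over all tested peaks, threshold 0.05). SE came from the quasi-likelihood F statistic. The code was tested on simulated counts. Libraries of 1 group differed by more than counting noise (chi-square over its degrees of freedom, 1.85 to 2.15), and each was used as its own replicate. Alternatives were voom (limma 3.58.1), DESeq2 1.42.0, RLE factors, library size alone, a mean count of 50 or more, no filter, a replicate block, a limit of 25 kb and each library left out.

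Peaks named are those called, the 10 of highest mean CPM, up to 5 per direction with the largest change among peaks of at least median level whose groups did not overlap, up to 3 per gene list by level, and those of the 5 genes with most peaks. Others are said to be chosen after their values were seen, and 1 peak that the rule names is not reported here. The class, lists and tests were chosen with earlier results of these data known. RefSeq windows and microRNAs were read from RefSeq tables on GRCm38.p6.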

Additional observations from a re-analysis of the deposited data

How the results depend on the processing

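The count of 3 called peaks did not hold across methods. It was 3, and the same 3 peaks, with RLE factors, library size alone, no filter or the replicate block. It was 0 with the Wald test of DESeq2 (66 peaks at an unadjusted p under 0.05), with voom (143), with a mean count of 50 or more (11 of 183 tested) and, chosen after seeing the data, without the MuLV-int peaks in the fit (131). With 1 library left out in turn it lay between 0 and 1. In the fit at a mean count of 50 or more none of the 3 called peaks is tested. The cause of the other losses was not tested. Without 1 library, the count at an unadjusted p under 0.05 lay between 101 and 139, against 127. The median log2 fold change moved past the spread between libraries (0.031) at a mean count of 50 or more, where it was -0.039. The difference in the share of counts in the class, CSE-KO minus WT, was 0.025 percentage points, and -0.0658 to 0.119 over the alternatives. All of these were smaller in size than the SD of the WT libraries (0.169), but 0.025 was above that of the CSE-KO libraries (0.021). Whether the replicate numbers pair the libraries is not known. Deviations from the group means correlated at 0.065, 0.014 and 0.0051 for numbers 1 to 3. Between unlike numbers the correlations were -0.036 to 0.019. With so few reads per peak, counting noise can hide a pairing, so these values cannot decide it. The replicate block gave 3 called peaks, with edgeR adjusted p of 0.0070 to 0.031. The median peak of the class held 20 reads or fewer in 4 of 6 libraries.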
